A study of Mus musculus with 23 samples.

Results

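The 35 genes described here mark the blood and lymph vessels of a tumour: the endothelium that lines them, the sprouting cells that extend them and the pericytes that wrap them. The rule is a list of symbols, not a measured value, and the genes were found through their Ensembl identifiers. All 35 of the 35 listed genes were found among the 55401 gene rows of the count table, and all 35 passed the filter on low counts. They comprise 17 surface, junction and adhesion genes of endothelium, the TIE receptors Tek and Tie1, the transcription factors Erg, Sox17 and Sox18, and 5 genes of tip cells and angiogenesis (Aplnr, Apln, Esm1, Angpt2, Dll4). The others are the arterial and Notch genes Notch4, Gja4 and Gja5, the lymphatic genes Lyve1 and Prox1, and the pericyte genes Rgs5, Kcnj8 and Notch3.

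RNA was measured by bulk poly(A) sequencing in 23 libraries from flank tumours of TC2Ras cells in male C57/BL6 mice aged 8 to 10 weeks. TC2Ras cells are TRAMP-C2 mouse prostate adenocarcinoma cells that carry a lentiviral activated H-ras, so all tumours share it. Plasmid DNA was put into the tibialis anterior muscle, not the tumour, by ultrasound with microbubbles, at 10 µg per muscle. It was pTSTA-IL27pepL (IL27v), which encodes the cytokine IL-27 with a peptide added, or the empty pTSTA-ctrl vector (EV). Tumour pieces were then exposed ex vivo to cabozantinib, cabozantinib plus IL-27, IL-27, docetaxel or an antibody to PD-L1, or were kept in media. This gave 6 groups for each vector, with 2 libraries in each, apart from a single library of IL27v tumours exposed to IL-27. Ex vivo doses and times were not given in these sources. No label ties replicates to separate animals, so the p-values reflect the spread of these libraries alone, and that spread may be technical.

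Cabozantinib inhibits the VEGF receptors, MET, AXL and other kinases and is used as an antiangiogenic drug, whereas docetaxel stabilises microtubules. VEGF made by tumour cells acts through its receptors on endothelium, where tip cells express Dll4, Esm1, Apln and Angpt2 and trailing cells respond through Notch receptors. Angpt2 is an antagonist or weak agonist of the TIE2 receptor, encoded by Tek, which with TIE1 helps to keep vessels quiet and wrapped by pericytes. In bulk tissue, fewer cells of a type and less RNA per cell cannot be told apart.

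Library totals were 47641781 to 83088346 estimated counts. Levels are given as CPM, each count relative to the library total as scaled by the TMM method, where 1 CPM stood for 36.3 to 86.5 counts. The labels name no batch, but cut-offs on skeletal muscle transcripts and on Ngp, a neutrophil granule gene, were used to place 22 of the 23 libraries in 3 sets. These are called A, B and C here. IL27v docetaxel replicate 1 was kept out of the sets by choice, not by the cut-offs. EV cabozantinib and EV media lie in set A. IL27v media lies in set B, while IL27v cabozantinib, cabozantinib plus IL-27 and docetaxel replicate 2 lie in set C and docetaxel replicate 1 in none, so in IL27v tumours exposure and set cannot be told apart. Of tumour markers, Krt8 ranged from 1.21 to 122 CPM, while Krt18 stayed at 0 to 2.51 CPM. The summed keratinocyte genes were 445 to 2820 CPM in both IL27v docetaxel libraries and IL27v anti-PD-L1 replicate 1, and 3.91 to 17.6 CPM in the other libraries. Each library also had its own trend of level with the GC content of the transcript. The steepest were those of IL27v media replicate 1, at -0.86 log2 units per 10 points of GC, and EV IL-27 replicate 1, at 0.75. IL27v cabozantinib replicate 2 came next, at 0.55, and its replicate 1 had 0.15. IL27v media replicate 2 had -0.31, and the remaining IL27v libraries had 0.07 to 0.27. In IL27v tumours the sign of the trend thus divided media from all exposures.

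Vessel transcripts were present in every library. Per kilobase of exon, the highest median level over the 23 libraries was that of Apln, the ligand of the apelin receptor, at 61.8 CPM per kb. Next were Cdh5 (VE-cadherin, the adhesion protein of endothelial junctions) at 10.2, Pecam1 (CD31) at 8.25, Cd34 at 7.86 and Esm1 (endocan) at 5.34 CPM per kb. The lowest were Gja4 at 0.120, Clec14a at 0.113, Gja5 at 0.0585 and the lymphatic regulator Prox1 at 0.0515 CPM per kb. At least 1 CPM was reached in all 23 libraries by 14 of the 35 genes, and in under 12 libraries by 6 (Clec14a, Sox18, Gja4, Gja5, Lyve1 and Prox1). Apln made up 21.0 to 48.4% of the summed CPM of the 35 genes. Its level was 107 to 282 CPM, and that of its receptor gene Aplnr 0.523 to 14.8 CPM. IL27v cabozantinib replicate 1 had 275 CPM of Apln and 0.812 CPM of Aplnr, while IL27v cabozantinib replicate 2 had 190 and 14.8 CPM. Replicates also differed in opposite ways in IL27v cabozantinib plus IL-27, docetaxel and anti-PD-L1. In IL27v media and in every EV group, the replicate with more Apln also had more Aplnr. No relation over all libraries was tested.

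On these genes 4 libraries stood apart from the rest, all from IL27v tumours. IL27v cabozantinib replicate 2 and both IL27v docetaxel libraries held the highest level of 24 of the 35 genes, and in 13 of them all 3 of these libraries stood above the other 20. These 13 include Cdh5, Emcn, Plvap, Vwf, Tek, Tie1, Dll4 and Notch4. At the other end, 21 genes had their lowest level in IL27v media replicate 2, where Cldn5, Sox17, Sox18 and Gja4 were at 0 counts, which allows up to 3 counts. As a median over the genes, IL27v cabozantinib replicate 2 stood 1.09 log2 units above the genes' own medians and the IL27v docetaxel libraries 0.91 and 1.01 above, while IL27v media replicate 2 stood at -1.62. The other 19 libraries lay between -0.38 and 0.27, as the plot of library medians shows. With each library's GC trend removed the 4 values were 0.78, 0.73, 0.86 and -1.55.

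**Figure D1:**
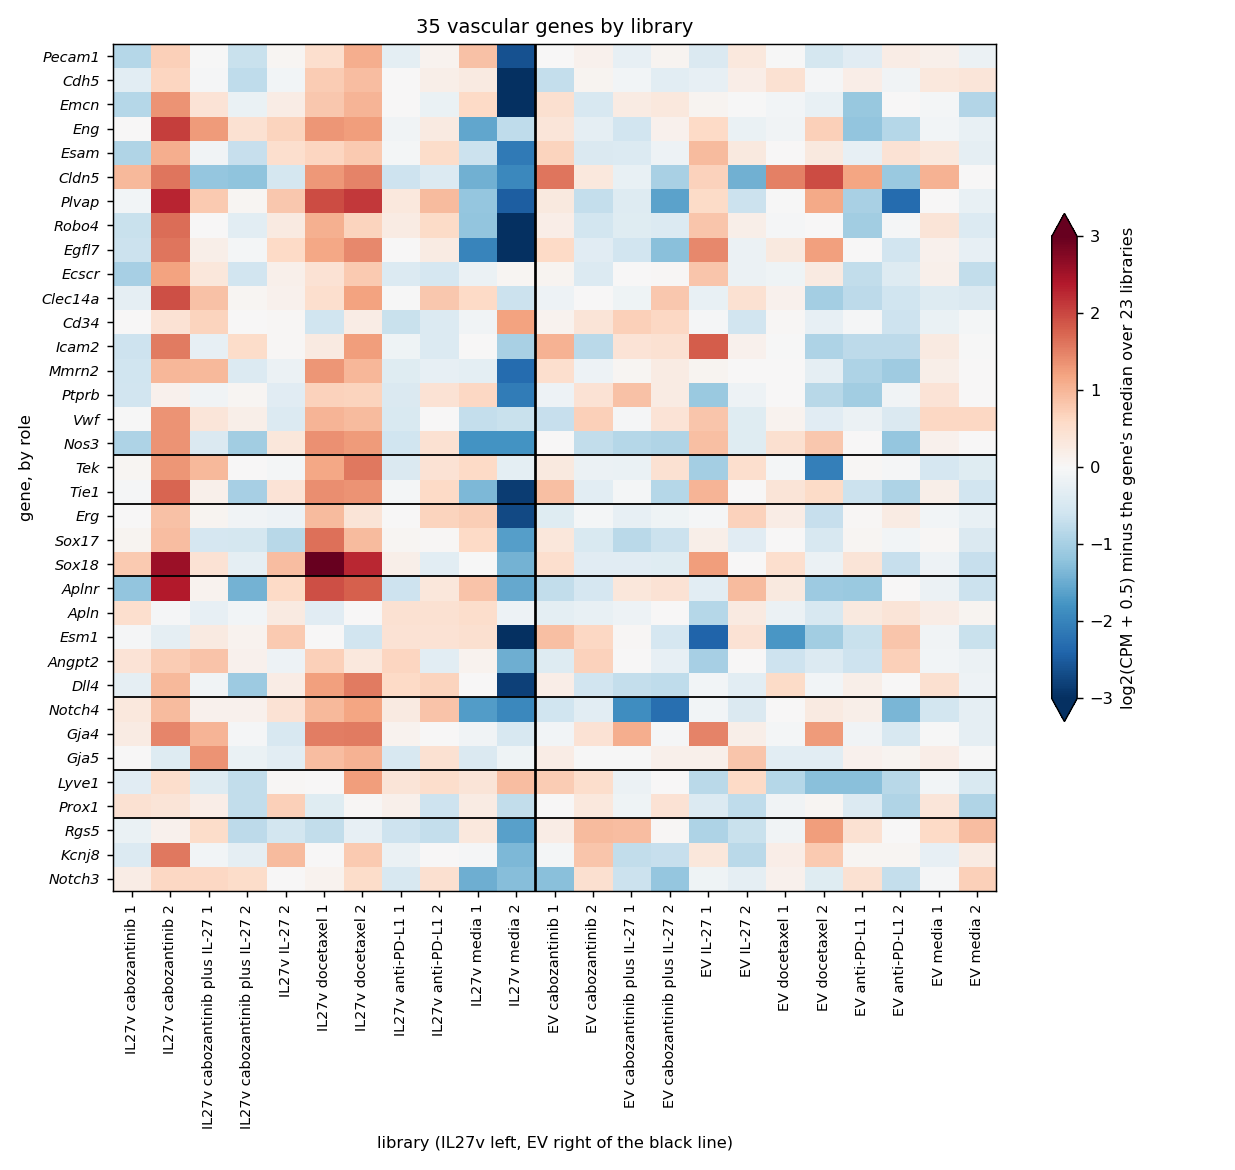
Level of each of the 35 genes (rows, grouped by role with lines between groups) in each of 23 libraries (columns, IL27v left and EV right), as log2(CPM + 0.5) minus the gene's median over libraries, with colours ending at 3 either way. IL27v cabozantinib 2 and both IL27v docetaxel columns are mostly red, and IL27v media 2, lowest for 21 of the 35 genes, is mostly blue.

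**Figure D2:**
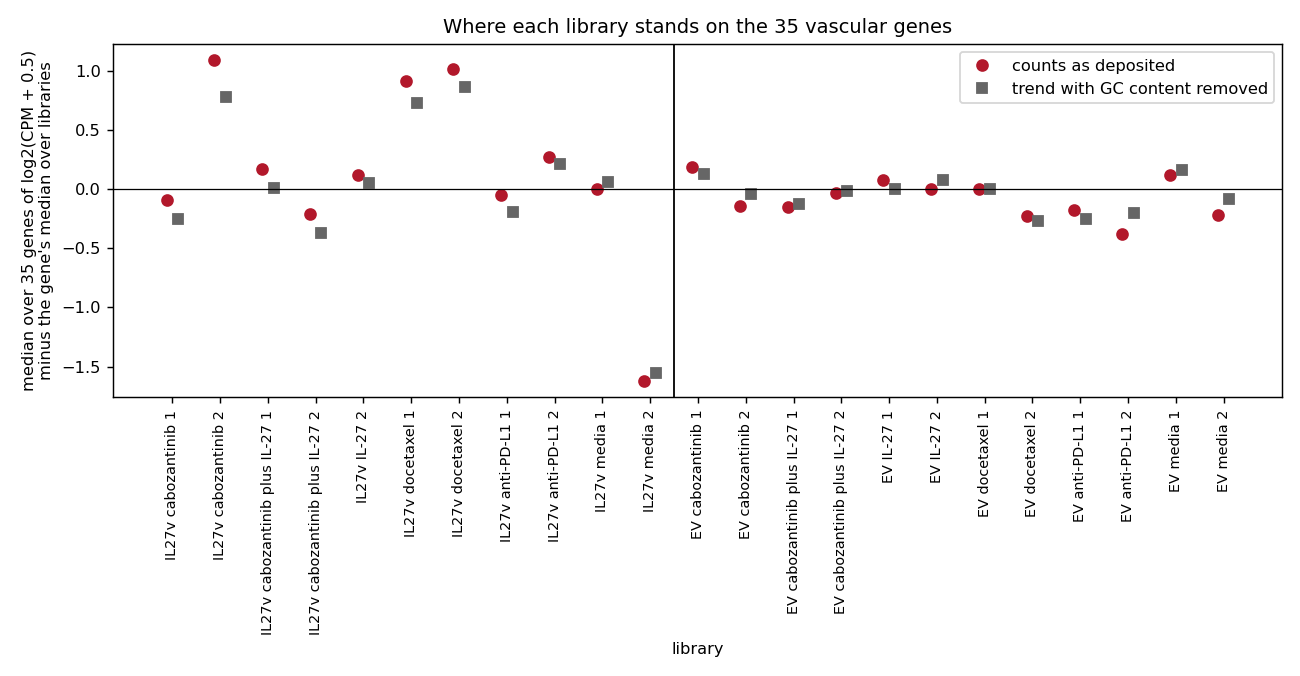
Median over the 35 genes of log2(CPM + 0.5) minus each gene's own median, per library, with counts as deposited (circles) and with the GC trend removed (squares). The 4 libraries that stand apart are IL27v cabozantinib 2 at 1.09, IL27v docetaxel 1 at 0.91 and 2 at 1.01, and IL27v media 2 at -1.62 with counts as deposited.

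Replicates of the same group also stood apart. IL27v cabozantinib replicate 2 was above replicate 1 in 31 of the 35 genes, by a median of 1.28 log2 units, and IL27v media replicate 1 was above replicate 2 in 27, by a median of 1.31. Over the genes of at least 1 CPM on average, the median absolute difference between the same replicates was 0.48 for IL27v cabozantinib and 0.51 for IL27v media. The summed 17 surface, junction and adhesion genes were 525 CPM in IL27v cabozantinib replicate 2 but 186 CPM in replicate 1. They were 265 CPM in IL27v media replicate 1 and 174 CPM in replicate 2, of which all but 40.1 CPM was Cd34, a gene that fibroblast-like stromal cells also express. The summed fibroblast genes were highest in that library, at 8520 CPM, against 1410 to 5430 CPM elsewhere, and their part in its Cd34 level was not tested. EV libraries ranged from 207 to 295 CPM over the 17 genes.

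The 35 genes also differed in sequence composition, which bears on the results below, since each library's levels followed GC content to a different degree. The GC content of their transcripts ranged from 41.1 to 61.2%, with a median of 52.8%, against a median of 49.3% over all genes tested. To show this range, 120 bases of coding sequence follow from the 2 members with called differences and the highest GC content (Notch4, transcript at 61.2% on chromosome 17, and Plvap, 60.6% on chromosome 8), and from the 2 members of lowest GC content (Emcn, 41.5% on chromosome 3, and Rgs5, 41.1% on chromosome 1). They were read from the GENCODE transcripts of GRCm38, 5′ to 3′ on the coding strand, with G and C in capitals.
Notch4: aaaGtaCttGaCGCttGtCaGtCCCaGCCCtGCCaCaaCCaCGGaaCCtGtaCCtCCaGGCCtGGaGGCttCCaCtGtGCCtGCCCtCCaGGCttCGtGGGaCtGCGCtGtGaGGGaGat
Plvap: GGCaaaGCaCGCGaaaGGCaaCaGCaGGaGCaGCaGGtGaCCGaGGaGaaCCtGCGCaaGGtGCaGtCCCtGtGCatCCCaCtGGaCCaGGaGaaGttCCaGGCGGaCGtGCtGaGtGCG
Emcn: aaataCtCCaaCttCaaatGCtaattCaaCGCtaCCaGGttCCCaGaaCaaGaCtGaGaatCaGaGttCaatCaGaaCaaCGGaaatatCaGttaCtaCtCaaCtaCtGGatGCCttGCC
Rgs5: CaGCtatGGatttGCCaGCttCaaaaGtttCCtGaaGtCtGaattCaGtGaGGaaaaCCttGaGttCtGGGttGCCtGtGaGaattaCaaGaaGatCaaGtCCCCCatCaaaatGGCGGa
The windows hold 60.8, 62.5, 40.8 and 44.2% G and C.

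Promoters, from 250 bases before to 50 after the start of the gene as RefSeq places it, were found for 20 of the 35 genes in RefSeq's table for GRCm38.p6. RefSeq's start can differ from the Ensembl start. The Egfl7 window lies wholly inside the Ensembl gene, and most of the Tie1 window does. Of the 5 genes called for cabozantinib in IL27v tumours below, 4 had one, and these are shown since the genes were called together. Capitals mark GGAA and its complement TTCC, the core letters bound by ETS factors such as ERG, which act in endothelium. The sequences run 5′ to 3′ on the gene's strand, from chr17:34564045-34564344 on the plus strand for Notch4, chr4:118489800-118490099 on the minus strand for Tie1, chr2:26580833-26581132 on the plus strand for Egfl7 and chr2:32646345-32646644 on the plus strand for Eng.
Notch4: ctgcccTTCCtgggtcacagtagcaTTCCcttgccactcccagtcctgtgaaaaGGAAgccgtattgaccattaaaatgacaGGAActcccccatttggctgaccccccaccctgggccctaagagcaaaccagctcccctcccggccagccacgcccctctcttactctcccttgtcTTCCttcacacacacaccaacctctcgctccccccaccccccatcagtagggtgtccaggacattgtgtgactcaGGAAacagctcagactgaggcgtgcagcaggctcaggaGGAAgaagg
Tie1: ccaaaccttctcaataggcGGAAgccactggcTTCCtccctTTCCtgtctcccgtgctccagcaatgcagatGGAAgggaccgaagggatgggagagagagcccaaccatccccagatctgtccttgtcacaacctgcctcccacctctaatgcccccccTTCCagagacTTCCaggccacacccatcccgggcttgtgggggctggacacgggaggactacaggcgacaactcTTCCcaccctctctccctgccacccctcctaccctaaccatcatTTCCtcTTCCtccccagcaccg
Egfl7: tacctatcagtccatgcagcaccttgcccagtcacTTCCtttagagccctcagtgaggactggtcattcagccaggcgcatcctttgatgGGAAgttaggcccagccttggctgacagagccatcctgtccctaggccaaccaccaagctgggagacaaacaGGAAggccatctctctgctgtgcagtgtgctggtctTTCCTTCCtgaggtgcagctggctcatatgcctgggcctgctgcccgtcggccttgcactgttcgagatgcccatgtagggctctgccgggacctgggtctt
Eng: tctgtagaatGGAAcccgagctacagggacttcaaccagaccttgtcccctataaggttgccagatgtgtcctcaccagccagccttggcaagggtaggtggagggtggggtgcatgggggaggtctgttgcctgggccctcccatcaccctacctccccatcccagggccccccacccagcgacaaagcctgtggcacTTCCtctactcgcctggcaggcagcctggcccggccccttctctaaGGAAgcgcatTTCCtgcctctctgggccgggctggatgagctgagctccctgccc
They hold 7, 9, 5 and 4 matches of GGAA on either strand. GGAA was in 18 of the 20 promoters and in 96.0% of all 32851 promoters of the table. The longer ETS motif CCGGAA was in 0 of the 20 and 14.9% of all, the Notch-related motif TGGGAA in 3 and 25.6%, the SOX-related motif ACAAAG in 4 and 18.7%, and TATAAA in 1 and 13.6%. Both strands were searched, and CCGGAA and TGGGAA hold GGAA within them.

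In IL27v tumours, 5 of the 35 genes were higher with cabozantinib than with media: Notch4, Egfl7, Eng, Tie1 and Plvap. By the roles listed above, these were Eng, Plvap and Egfl7 of the surface, junction and adhesion genes, 1 TIE receptor and 1 of the arterial and Notch genes. No transcription factor, tip cell, lymphatic or pericyte gene was called. Their increases were 2.58 to 3.57 log2 units, and none of the 5 was called without IL27v cabozantinib replicate 2.

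Notch4, an endothelial Notch receptor gene (ENSMUSG00000015468, chromosome 17, 34564268 to 34588503, GRCm38), had 15.4 and 24.3 CPM in IL27v cabozantinib, against 3.48 and 2.84 CPM in IL27v media. The groups were far apart, and the media libraries were the only IL27v libraries under 13.5 CPM. Over both vectors, Notch4 was at 2.16 to 4.46 CPM in set B: IL27v media, EV cabozantinib plus IL-27 and EV anti-PD-L1 replicate 2. All other libraries had at least 7.92 CPM, among them EV anti-PD-L1 replicate 1 of set A, at 13.9 CPM. Exposure and set cannot be told apart in this comparison. The log2 difference was 2.65 ± 0.47 (SE; edgeR quasi-likelihood test, adjusted p = 0.018).

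Egfl7 (ENSMUSG00000026921, chromosome 2, 26580014 to 26593120), which encodes a protein that endothelial cells secrete into their matrix, had 8.42 and 42.4 CPM in IL27v cabozantinib, against 3.05 and 1.22 CPM in IL27v media. The groups did not overlap, but the cabozantinib libraries differed from each other more than the lower one did from media replicate 1. The log2 difference was 3.57 ± 0.73 (SE; edgeR adjusted p = 0.024).

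Eng (ENSMUSG00000026814, chromosome 2, 32646595 to 32682669) encodes endoglin, a coreceptor for BMP9 and other TGF-β family ligands. It had 15.8 and 68.1 CPM in IL27v cabozantinib, against 5.01 and 9.04 CPM in IL27v media, and 68.1 CPM was its highest level in the study. The log2 difference was 2.58 ± 0.58 (SE; edgeR adjusted p = 0.033).

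Tie1 (ENSMUSG00000033191, chromosome 4, 118471191 to 118490061), the partner receptor of TIE2, had 7.12 and 25.3 CPM in IL27v cabozantinib, against 2.57 and 0.582 CPM in IL27v media. Plvap (ENSMUSG00000034845, chromosome 8, 71497765 to 71511752), which forms the diaphragms of fenestrated endothelium, had 6.25 and 34.5 CPM in IL27v cabozantinib, against 2.72 and 0.792 CPM in IL27v media. In both genes the first cabozantinib library was within the range of the EV libraries and the second above it. The log2 difference was 3.36 ± 0.77 (SE; edgeR adjusted p = 0.036) for Tie1 and 3.53 ± 0.88 (SE; edgeR adjusted p = 0.049) for Plvap.

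**Figure D3:**
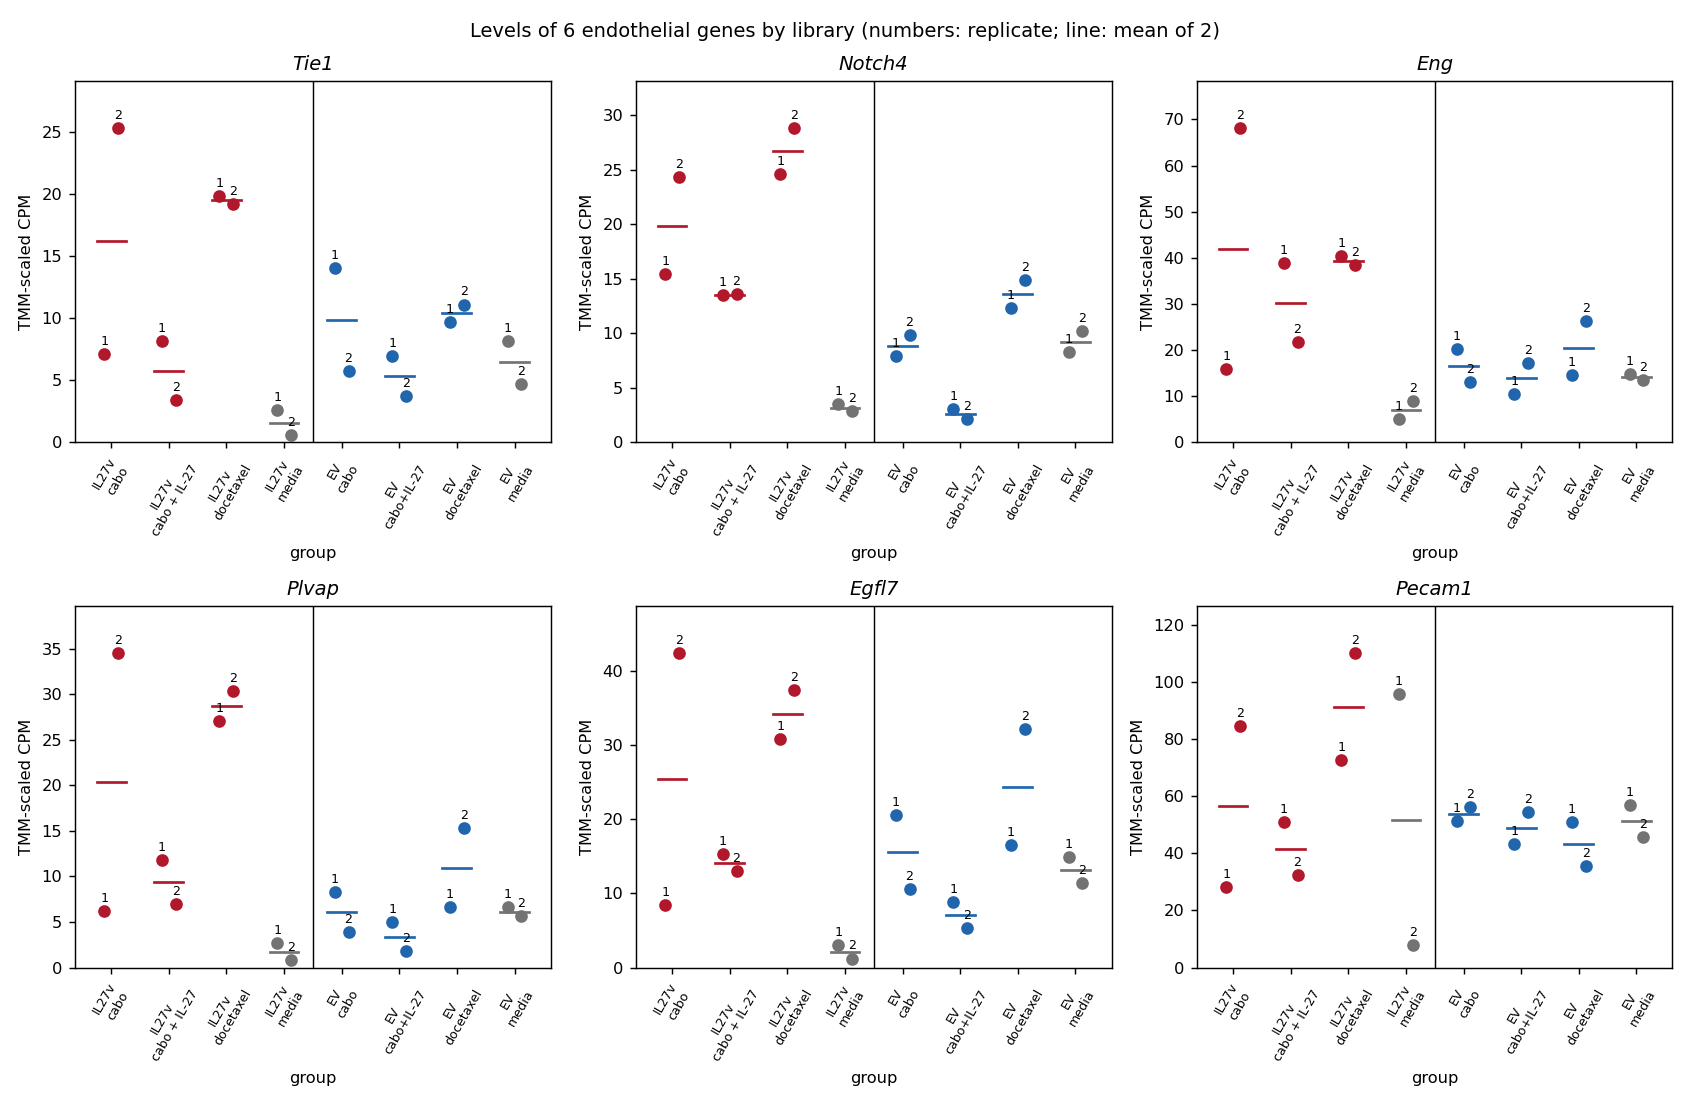
TMM-scaled CPM of 6 endothelial genes in each library, numbered by replicate, for cabozantinib, cabozantinib plus IL-27, docetaxel and media (left to right) in IL27v tumours and in EV tumours, with lines at the mean of 2. In the 5 called genes the IL27v media libraries are the lowest of those in IL27v tumours, whereas Pecam1 had 28.3 and 84.7 CPM in IL27v cabozantinib and 95.7 and 7.93 CPM in IL27v media.

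The 5 called of 35 stood beside 1.88% of all 24440 genes called in the same comparison, and 1.87% called higher. DESeq2 called 11 of the 35, against 6.43% of all genes. The median difference of the 35 was 1.53 log2 units, with 33 positive, against 0.0 over all genes tested. At an unadjusted p under 0.05, 14 of the 35 were higher and none lower, against 9.5% of all genes higher. Every cabozantinib library was above both media libraries for 14 of the 35 (40.0%), against 21.4% of all genes, and below both for 0, against 19.8%.

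The genes next in line did not pass the test. Nos3, the endothelial nitric oxide synthase, had 1.37 and 8.67 CPM in IL27v cabozantinib, against 0.535 and 0.538 CPM in IL27v media, a log2 difference of 3.22 ± 0.81 (SE; edgeR adjusted p = 0.051). Cldn5, the claudin of endothelial tight junctions, had 3.29 and 5.39 CPM in IL27v cabozantinib, against 0.208 and 0 CPM in IL27v media, and its fitted difference of 5.36 ± 1.41 (SE; edgeR adjusted p = 0.062) depends on how a count of 0 is treated. Robo4, a guidance receptor of endothelium, differed by 3.19 (edgeR adjusted p = 0.073) and the pericyte gene Notch3 by 1.89 (edgeR adjusted p = 0.090).

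The most abundant vessel genes did not separate the groups. Cdh5 had 34.2 and 67.8 CPM in IL27v cabozantinib, against 52.1 and 4.02 CPM in IL27v media. Pecam1 differed by 0.12 ± 0.71 log2 units and Apln, at 275 and 190 CPM in IL27v cabozantinib against 282 and 176 CPM in IL27v media, by 0.02 ± 0.33 (SE). In all 3 genes 1 media library lay among or above the cabozantinib libraries. Apln was still at 176 CPM in IL27v media replicate 2, where Cdh5 was at 4.02 CPM, and which cells gave its level was not tested. Cd34 and Lyve1, the hyaluronan receptor of lymphatic endothelium, were the only members with a negative difference, of -0.47 ± 0.40 and -0.70 ± 0.86 (SE).

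The calls moved with single libraries. Calls in this paragraph are given without those of all genes, so they do not show whether members changed apart from other genes. Of the 23 fits that left out 1 library, the call was kept in 21 for Eng and for Notch4, 20 for Egfl7, 18 for Tie1 and only 5 for Plvap. Without IL27v cabozantinib replicate 2 none of the 35 was called and their median difference was 0.39. Without IL27v media replicate 1 only Cdh5 was called, with a median of 3.32, and without media replicate 2 Eng and Notch4 were, with a median of 0.80. Without IL27v docetaxel replicate 1 or 2, the calls were Egfl7, Eng and Notch4. With both IL27v cabozantinib replicate 2 and IL27v media replicate 2 left out, none was called, the median was -0.27, and 16 of the 35 differences were positive. Without the 3 libraries of high keratinocyte sums, Notch4 alone was called. The summed macrophage genes were highest in IL27v cabozantinib replicate 2, at 531 CPM, against 126 to 397 CPM in the other libraries, and their part in its vessel transcripts was not tested.

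In EV tumours, where cabozantinib and media libraries share set A, none of the 35 genes was called. The background was 0.0% of all genes by edgeR at an adjusted p under 0.05, with 444 genes at an unadjusted p under 0.05 and 16 genes (0.0655%), none of them a member, by DESeq2. The median difference of the 35 was 0.16, with 22 positive and 13 negative. Both cabozantinib libraries were above both media libraries for 5 genes (14.3%, against 14.1% of all genes) and below for 3 (8.57%, against 13.4%).

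No single gene passed the test in EV tumours. Tie1 had 14.0 and 5.73 CPM in EV cabozantinib, against 8.19 and 4.73 CPM in EV media, a difference of 0.61 ± 0.70 log2 units (SE). Notch4 had 7.92 and 9.80 CPM in EV cabozantinib, against 8.27 and 10.2 CPM in EV media, a difference of -0.06 ± 0.44. Both pairs of ranges overlapped. Among genes whose ranges did not, Esm1, a tip cell proteoglycan induced by VEGF, had 21.2 and 17.4 CPM in EV cabozantinib, against 10.3 and 6.89 CPM in EV media, a difference of 1.17 ± 0.92. Apln had 160 and 168 CPM in EV cabozantinib, against 229 and 207 CPM in EV media, a difference of -0.41 ± 0.33, and Cdh5 had 25.8 and 45.2 CPM, against 53.5 and 55.5 CPM in EV media, a difference of -0.62 ± 0.68. The edgeR adjusted p was 1.0 for each of these.

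The difference between the vectors was itself tested and none of the 35 passed, where 0.0205% of all genes did. By DESeq2, 3 members were called, against 2.21% of all genes. The median interaction over the 35 was 1.31 log2 units, against -0.08 over all genes. It was 2.71 ± 0.63 for Notch4 (SE; edgeR adjusted p = 0.10), 3.32 ± 0.95 for Egfl7 (adjusted p = 0.20) and 3.69 ± 1.08 for Nos3 (adjusted p = 0.21). Averaged over both vectors, cabozantinib gave no called member, against 0.0% of all genes by edgeR, while DESeq2 called Cldn5, Egfl7, Eng, Notch4 and Tie1, against 1.21% of all genes. The median was 0.73 with 32 positive, yet for 0 of the 35 did the cabozantinib libraries stand above media under both vectors, and for 0 below, against 3.55% and 4.3% of all genes.

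In IL27v tumours, 1 of the 35 genes was called higher with cabozantinib plus IL-27 than with media, where 0.904% of all genes were called and 0.896% were called higher. Notch4 had 13.5 and 13.6 CPM in IL27v cabozantinib plus IL-27, against 3.48 and 2.84 CPM in IL27v media, a log2 difference of 2.10 ± 0.46 (SE; edgeR adjusted p = 0.048). The exposed replicates were nearly equal, but the call was kept in only 5 of the 23 fits that left out 1 library, namely those without EV IL-27 replicate 1 or 2, EV anti-PD-L1 replicate 1 or 2, or the IL27v IL-27 library. Egfl7 had 15.3 and 13 CPM in IL27v cabozantinib plus IL-27, against 3.05 and 1.22 CPM in IL27v media, a difference of 2.73 (edgeR adjusted p = 0.077). Eng had 38.8 and 21.7 CPM, against 5.01 and 9.04 CPM in media, a difference of 2.11 (edgeR adjusted p = 0.093). DESeq2 called Egfl7, Eng, Notch3 and Notch4, against 4.51% of all genes. The median of the 35 was 0.68. Both exposed libraries were above media for 12 genes (34.3%, against 21.3% of all genes) and below for Lyve1, which had 0.594 and 0.369 CPM, against 1.38 and 2.21 CPM in IL27v media.

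In EV tumours the same receptor gene stood below media with cabozantinib plus IL-27. Notch4 had 3.03 and 2.16 CPM in EV cabozantinib plus IL-27, against 8.27 and 10.2 CPM in EV media, a log2 difference of -1.83 ± 0.46 (SE; edgeR adjusted p = 0.75). It was not called by edgeR, where 0.00409% of all genes were, and was called by DESeq2, as were 0.516% of all genes, and without the filter on low counts. Notch3 had 9.46 and 6.39 CPM in EV cabozantinib plus IL-27, against 14.6 and 25 CPM in EV media, a difference of -1.32 ± 0.54, and was not called. Of the 35, 12 were below media in both exposed libraries (34.3%, against 18.0% of all genes) and 6 above (17.1%, against 19.7%), with a median of -0.05. These libraries lie in set B and EV media in set A, so exposure and set cannot be told apart. Their summed muscle genes were 630 and 541 CPM, against 50.6 and 36.5 CPM in EV media.

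With both vectors averaged, cabozantinib plus IL-27 gave no called member, against 0.00409% of all genes by edgeR and 0.237% by DESeq2, and a median of 0.29. For 0 of the 35 did both vectors have the exposed libraries above media, and for 0 below, against 3.4% and 4.24% of all genes. The cabozantinib factor, taken over media, cabozantinib, IL-27 and their combination under both vectors, also gave none, against 0.00409% of all genes by edgeR and 0.344% by DESeq2. Its median was 0.37, and the members with an unadjusted p under 0.05 were Gja4, at 3.09 ± 1.09, and Eng, at 0.66 ± 0.29 log2 units (SE). Gja4 was at most 1.58 CPM in any library, and at 0 CPM in IL27v media replicate 2 and the single IL27v IL-27 library. Both lie on the side without cabozantinib, so its fitted difference depends on how a count of 0 is treated.

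Docetaxel averaged over vectors gave 5 of the 35 called higher, against 1.76% of all genes higher and 1.79% in either direction: Notch4, Egfl7, Nos3, Tie1 and Plvap. DESeq2 called 9, against 6.84% of all genes. Docetaxel and cabozantinib share their media libraries, so the lists are not independent.

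Notch4 had 24.6 and 28.8 CPM in IL27v docetaxel, against 3.48 and 2.84 CPM in IL27v media, and 12.3 and 14.9 CPM in EV docetaxel, against 8.27 and 10.2 CPM in EV media. With counts as deposited, both docetaxel libraries exceeded both media libraries under either vector. The mean log2 difference was 1.82 ± 0.32 (SE; edgeR adjusted p = 0.013). With the GC trend removed, the EV ranges overlapped, at 11.2 and 8.96 CPM in EV docetaxel against 10.1 and 10.9 CPM in EV media.

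Egfl7 had 30.9 and 37.5 CPM in IL27v docetaxel, against 3.05 and 1.22 CPM in IL27v media, and 16.6 and 32.2 CPM in EV docetaxel, against 14.9 and 11.4 CPM in EV media. Its mean difference was 2.45 ± 0.49 (SE; edgeR adjusted p = 0.020). Nos3 differed by 2.31 ± 0.55 (adjusted p = 0.040), Tie1 by 2.16 ± 0.51 (adjusted p = 0.043) and Plvap by 2.43 ± 0.59 (adjusted p = 0.046). Under both vectors at once, docetaxel libraries stood above media for Cldn5, Egfl7, Nos3, Tie1 and Notch4 (14.3%, against 8.0% of all genes), and below media for 0, against 7.14%.

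Within IL27v tumours, 26 of the 35 genes were above media in both docetaxel libraries (74.3%, against 23% of all genes), with a median of 1.80 log2 units. Called were 7, against 2.7% of all genes higher: Notch4 at 3.08 (edgeR adjusted p = 0.0042), Egfl7 at 4.00 (0.0097), Nos3 at 3.97 (0.019), Tie1 at 3.63 (0.020), Plvap at 4.03 (0.025), Eng at 2.49 (0.030) and Cldn5 at 5.44 (0.049). Within EV tumours the median was 0.03 and none was called, against 0.0% of all genes. None passed the test of the difference between vectors, in which Notch4 had 2.51 ± 0.63 (SE; edgeR adjusted p = 0.23). These within-vector fits were added after the data were seen. Both IL27v docetaxel libraries had the high keratinocyte sums given above, at 2820 and 2240 CPM, and the part of skin in their vessel transcripts was not tested.

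The mean docetaxel calls also moved with single libraries. Counts in this paragraph stand without those of all genes, so they do not show whether members changed apart from other genes. Of the 23 fits that left out 1 library, the call was kept in 18 for Notch4 and for Egfl7, 10 for Nos3, and 7 for Tie1 and for Plvap. None of the 35 was called without EV media replicate 1, EV media replicate 2, EV docetaxel replicate 2 or IL27v docetaxel replicate 1. Without IL27v media replicate 1, 5 other genes (Cdh5, Dll4, Erg, Sox17 and Sox18) were called instead. Without IL27v media replicate 2, or IL27v anti-PD-L1 replicate 1 or 2, 3 were called. Another 7 libraries left 2 called when taken out: EV cabozantinib replicate 1, IL27v docetaxel replicate 2, IL27v IL-27 replicate 2, and both cabozantinib plus IL-27 libraries of each vector.

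Anti-PD-L1 and ex vivo IL-27 gave no called member, against 0.0% of all genes for each by edgeR, with 1429 and 2907 genes at an unadjusted p under 0.05. Under anti-PD-L1 the median was 0.25 and Notch4 differed by 1.28 ± 0.32 log2 units (SE; edgeR adjusted p = 0.56), and DESeq2 called it, as it did 0.43% of all genes. Under IL-27, which rests on 1 library in IL27v tumours, the median was 0.45 and Egfl7 differed by 2.09 ± 0.51 (SE; edgeR adjusted p = 0.20). DESeq2 called Egfl7 and Notch4, against 2.51% of all genes, and without EV IL-27 replicate 2, edgeR called 4 members, all higher, and 3821 of 24332 genes in all, 1547 of them higher.

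Across the 6 ex vivo conditions, Notch4 was on average higher in IL27v than in EV tumours. Its mean was 16.5 ± 8.33 CPM over 11 IL27v libraries and 8.96 ± 4.08 CPM over 12 EV libraries (SD), with ranges of 2.84 to 28.8 and 2.16 to 14.9 CPM. The ranges overlapped. In media both IL27v libraries were below both EV libraries, and in each other condition every IL27v library was above every EV library. With the GC trend removed, the vectors overlapped in media and in cabozantinib (IL27v 10.9 and 13.1 CPM, EV 8.39 and 13.7 CPM). They also overlapped in anti-PD-L1 (IL27v 12.6 and 18.7 CPM, EV 14.2 and 7.47 CPM). Most IL27v libraries lie in set C, where EV IL-27 replicate 1 is the only EV library, so vector and set cannot be fully told apart. The mean log2 difference over conditions was 0.79 ± 0.19 (SE; edgeR adjusted p = 0.030), the only call among the 35, against 2.28% of all genes higher and 2.95% in either direction. DESeq2 called 2 members, against 7.95% of all genes. The edgeR call was kept in 9 of 22 fits that left out 1 library. The call was lost without either EV media or EV docetaxel library, EV cabozantinib replicate 1, EV cabozantinib plus IL-27 replicate 2, IL27v media replicate 1, IL27v cabozantinib replicate 2, IL27v anti-PD-L1 replicate 2, or either IL27v docetaxel or IL27v cabozantinib plus IL-27 library. Without IL27v media replicate 1, Cldn5 and Rgs5 were called lower.

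Rgs5, a marker of pericytes, had a median of 12.7 CPM in IL27v libraries (5.79 to 27.9) and 24.0 CPM in EV libraries (9.73 to 45.9). The ranges overlapped widely and its log2 difference was -0.71 ± 0.25 (SE; edgeR adjusted p = 0.16). Kcnj8 and Notch3, the other pericyte genes, were not called either, and the median of the 35 was 0.20. The summed skeletal muscle genes were 51.5 to 1070 CPM in IL27v libraries and 29.3 to 630 CPM in EV libraries, and their part in the vector difference was not tested beyond a fit with that sum as a covariate, in which none of the 35 was called.

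In several comparisons the differences of the 35 genes ran with the GC content of their transcripts. For cabozantinib in IL27v tumours, the median difference was 3.29 log2 units over the 12 genes of at least 55% GC, 0.96 over the 13 between 50 and 55%, and 0.52 over the 10 below 50%. Across the 35 genes, which share the same 4 libraries, Pearson's r between difference and GC content was 0.76 and Spearman's rho 0.81, against r = 0.30 across all 24440 genes. The genes called there, at 57.4 to 61.2% GC, are among those 12. Pearson's r was 0.80 for docetaxel and 0.65 for cabozantinib plus IL-27 in IL27v tumours. It had the opposite sign in EV tumours for cabozantinib, at -0.26, and for cabozantinib plus IL-27, at -0.53, but not for docetaxel, at 0.51. Averaged over vectors it was 0.61 for anti-PD-L1 and 0.52 for IL-27, and it was -0.17 for the vector.

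With each library's trend with GC content removed, an alternative added after the data were seen, none of the 35 was called in any of the 12 comparisons. For cabozantinib in IL27v tumours the median of the 35 was then 1.06, and the medians by GC content were 1.42, 0.62 and 1.04 from high to low. Notch4 differed by 0.71 (edgeR adjusted p = 0.71), Eng by 1.42 (adjusted p = 0.31) and Egfl7 by 1.90 (adjusted p = 0.29), all still positive. Removing the trend also takes away any difference that runs with GC content among genes, and the part of each was not tested. For docetaxel in IL27v tumours the median was 1.47 after removal, with 24 of the 35 genes above media in both libraries (68.6%, against 18.2% of all genes), and the lowest adjusted p among the 7 called genes was 0.062, for Egfl7. The other counts above media came nearer to those of all genes. For cabozantinib in IL27v tumours 8 genes were above (22.9%, against 16.1% of all genes), and for cabozantinib plus IL-27 there 6 were (17.1%, against 16.9%). For docetaxel under both vectors at once the count was 2 (5.71%, against 4.69%), namely Cldn5 and Nos3, and no longer Notch4, Egfl7 or Tie1.

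**Figure D4:**
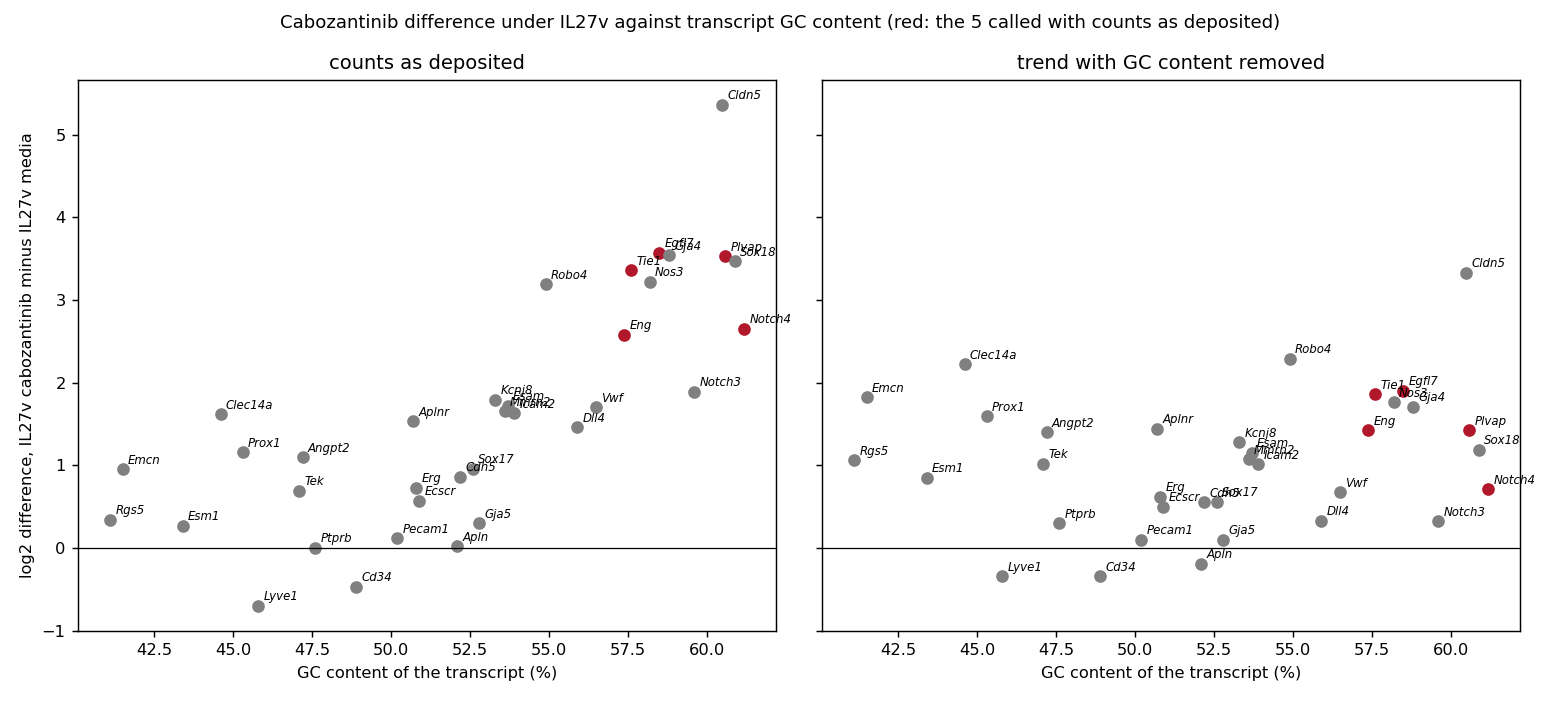
Log2 difference of each of the 35 genes between IL27v cabozantinib and IL27v media (vertical axis) against the GC content of its transcript in percent (horizontal axis), with counts as deposited on the left and the GC trend removed on the right. The 5 genes called on the left are in red. On the left Pearson's r was 0.76, and on the right it was 0.21.

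**Figure D5:**
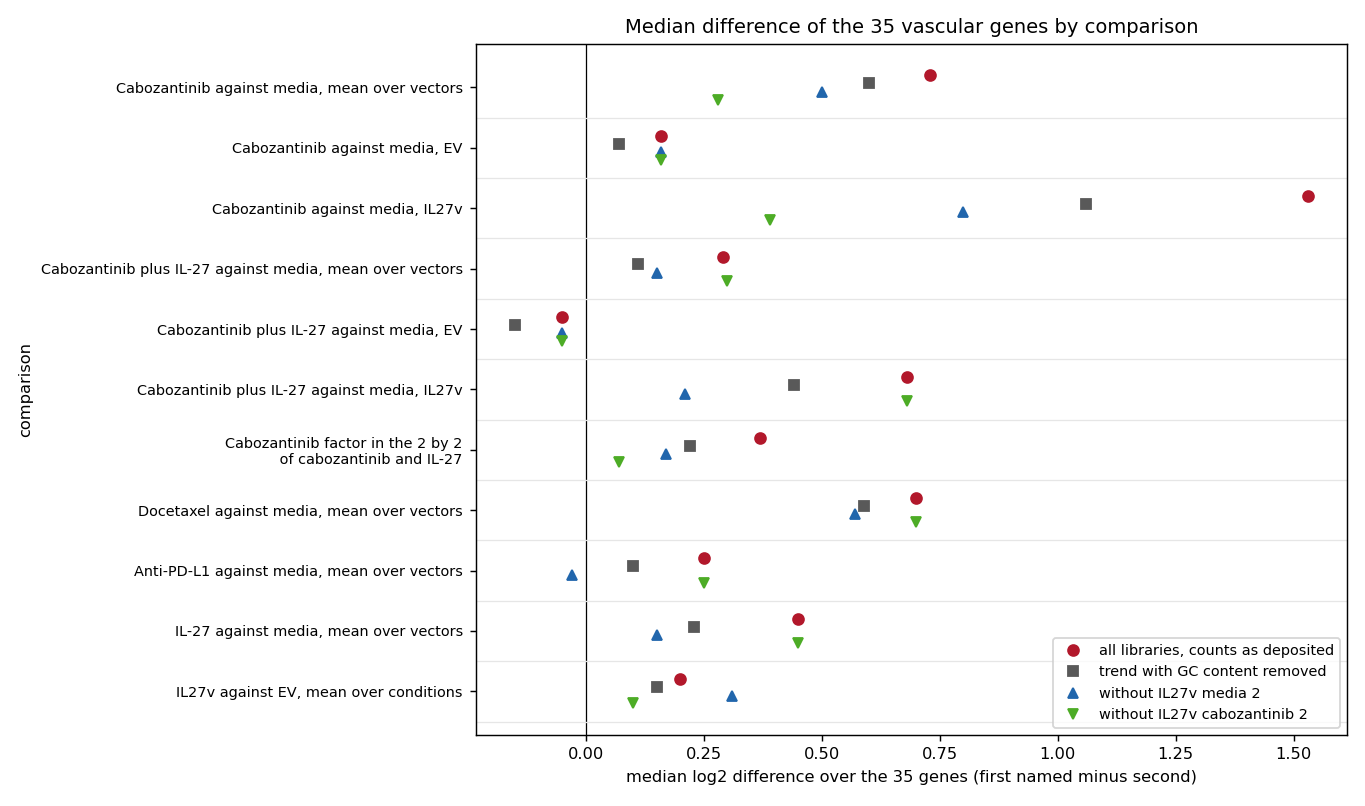
Median log2 difference over the 35 genes in 11 comparisons, with all libraries and counts as deposited (circles), with the GC trend removed (squares), and without IL27v media 2 or IL27v cabozantinib 2 (triangles). The median for cabozantinib in IL27v tumours was 1.53 with all libraries, 1.06 with the trend removed, 0.80 without IL27v media 2 and 0.39 without IL27v cabozantinib 2.

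Ligands, receptors and other vessel genes of the same pathways were listed apart from the 35. Of 33 other endothelial genes, 1 was called for cabozantinib in IL27v tumours and 13 had a positive difference, with a median of -0.42. The called gene, Pdgfb, the ligand by which endothelium recruits pericytes, had 2.23 and 12.1 CPM in IL27v cabozantinib, against 1.03 and 1.03 CPM in IL27v media, a log2 difference of 2.80 ± 0.67 (SE; edgeR adjusted p = 0.043). With the GC trend removed its adjusted p was 0.72.

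The VEGF receptor genes were not called for cabozantinib. Kdr, which encodes VEGFR2, had 4.79 and 8.17 CPM in IL27v cabozantinib, against 16.1 and 4.73 CPM in IL27v media, a difference of -0.68 ± 0.81 log2 units (SE). Flt1, which encodes VEGFR1, had 21.9 and 26.2 CPM in IL27v cabozantinib, against 94.9 and 6.09 CPM in IL27v media, a difference of -1.07 ± 0.72. In both genes the media libraries lay on either side of the cabozantinib libraries. Flt4, which encodes VEGFR3, had 2.16 and 4.9 CPM in IL27v cabozantinib, against 1.44 and 0.358 CPM in IL27v media, a difference of 1.97 ± 0.84 (SE; edgeR adjusted p = 0.32), with both cabozantinib libraries above both media libraries. In EV tumours the difference was -0.56 ± 0.81 for Kdr, -0.84 ± 0.72 for Flt1 and -0.81 ± 0.81 for Flt4. There Kdr had 6.08 and 6.16 CPM in cabozantinib, against 9.84 and 8.17 CPM in media. Flt1 had 29.0 and 50.9 CPM in EV cabozantinib, against 70.5 and 72.0 CPM in EV media. In both, the cabozantinib libraries were below both media libraries, as were those of 13.4% of all genes, while the ranges of Flt4 overlapped.

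Of 10 angiogenic ligands, none was called for cabozantinib under either vector, and the median was 0.08 in EV and 0.14 in IL27v tumours. Vegfa, the main VEGF receptor ligand, ranged from 294 to 691 CPM and differed by 0.21 ± 0.32 log2 units in IL27v and -0.31 ± 0.32 in EV tumours (SE). Hgf, the ligand of MET, was lower in IL27v than in EV tumours by a log2 difference of -1.72 ± 0.39 (edgeR adjusted p = 0.024). Between the vectors, Thbd (thrombomodulin, an anticoagulant receptor of endothelium) was higher by 1.30 ± 0.25 (adjusted p = 0.0082) in IL27v tumours. Of 11 other mural and smooth muscle genes, Des, the desmin gene of pericytes and of skeletal muscle, was higher by 2.86 ± 0.54 (adjusted p = 0.0081), and 13 of 14 skeletal muscle genes were called higher in the same comparison. None of 5 other lymphatic genes was called in any of the 12 comparisons.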

How the data were processed

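The deposited table holds the authors' estimated counts for 23 libraries, as whole numbers. The submitters' processing notes list cutadapt, HISAT2, StringTie, DESeq2 and GRCm38. For versions, the counting step and its use of strand, nothing is given in the sources used here. In 143 genes every library has 1 and the same nonzero value, so these are not plain read counts.

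Groups came from the sample titles. Levels and tests were computed in R 4.3.3 with edgeR 4.0.16 (TMM, filterByExpr by group, glmQLFit and glmQLFTest) on 24440 genes with 12 group means and 11 residual degrees of freedom. A call needed an adjusted p (Benjamini-Hochberg, over all genes) under 0.05, and each SE is the absolute log2 difference over the square root of F. Exposures share their media libraries. Symbols, lengths and GC content came from GENCODE's GRCm38 annotation. The floor of 3 counts was 0.0347 to 0.0828 CPM per library and covers counting error only. The code was tested on simulated counts with less spread than these data, whose common biological coefficient of variation was 0.62. That test therefore cannot tell how many calls here are missed or false.

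The members and lists were chosen with earlier results of these data known. All 35 members could be named, and outside them 10 ligand and receptor genes and any called gene of the other vessel lists. Alternatives were DESeq2 1.42.0, RLE scaling, other filters, a replicate block, a muscle covariate, fewer libraries and additive models. The GC, keratinocyte, library-pair, set A and within-vector docetaxel fits were added after seeing the data. The replicate numbers did not pair the samples.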

Additional observations from a re-analysis of the deposited data

How the results depend on the processing

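Counts of called members depended on the tool and filter. DESeq2 called 5 members for cabozantinib averaged over vectors, 11 for it in IL27v tumours, 1 and 4 for cabozantinib plus IL-27 in EV and IL27v tumours, 9 for docetaxel, 1 for anti-PD-L1, 2 for IL-27, 2 for the vector and 3 for the cabozantinib by vector interaction. With no filter on low counts these numbers were 8, 11, 1, 7, 10, 2, 5, 5 and 9, beside 948, 1654, 469, 1136, 1843, 506, 1093, 1631 and 829 of all 33123 genes. RLE scaling left 0 for cabozantinib plus IL-27 in IL27v tumours. With the muscle sum as a covariate 3 were called for cabozantinib in IL27v tumours, 0 for cabozantinib plus IL-27 there, 2 for docetaxel and 0 for the vector. Fits of the compared groups alone gave 0, 0 and 2 for cabozantinib and cabozantinib plus IL-27 in IL27v tumours and docetaxel. The additive models, with or without the set of libraries, gave 0 for docetaxel and 0 for the vector. With the GC trend removed, and with IL27v media replicate 2 left out as well, 0 members were called in every comparison, and Notch4 for cabozantinib plus IL-27 in IL27v tumours changed sign to -0.04 in the second of these. Without the 3 libraries of high keratinocyte sums, 1 was called for cabozantinib and 0 for cabozantinib plus IL-27 in IL27v tumours. Without IL27v media 2 and IL27v cabozantinib 2, 0 were called for cabozantinib in IL27v tumours, 1 for IL-27 and 0 for the vector. Where a count stands without the number of all genes called, it does not show whether members changed apart from other genes. The cause of these changes was not tested.

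Leaving out each library in turn gave 0 to 7 called members for cabozantinib in IL27v tumours (2 to 1134 of all genes), 0 to 2 for cabozantinib plus IL-27 there (0 to 941), 0 to 7 for docetaxel (0 to 1251), 0 to 4 for IL-27 (0 to 3821), 0 to 2 for the vector (394 to 1244), 0 to 1 for the interaction (0 to 507) and 0 in every fit of the other 6 comparisons (at most 346). Without the single IL27v IL-27 library no value exists for IL-27, the vector or the cabozantinib factor. A replicate block gave 4 called members for cabozantinib in IL27v tumours, 0 for cabozantinib plus IL-27 there, 4 for docetaxel and 1 for the vector. No number of all genes called is given beside them, so they do not show whether members changed apart from other genes. Over 55 pairs of groups, deviations of same-numbered libraries correlated at -0.67 to 0.52, with 13 pairs over 0.1 and 17 under -0.1. The median absolute difference between replicates over the 35 genes was 1.28 log2 units in IL27v cabozantinib and 1.32 in IL27v media, and 0.25 to 0.96 in the other groups of 2 libraries, which limits the precision of each value.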
